A study of Mus musculus with 30 samples.

Results

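The comparison described here is that of the descending colon of mice lacking the core 1 and core 3 O-glycan branches in the colon epithelium with that of control mice. It takes every library whose name marks the descending colon, 15 of the 30 libraries in the series: 8 from mutants and 7 from controls. All were RNA-sequencing libraries from female mice in 3 cage groups of littermates, called cages A, B and C here. The mutants carried C1galt1f/f, the VillinCre-ERT2 transgene and C3GnT-/-, and the controls were wild-type littermates. Mutants and littermates alike received 0.5 mg of tamoxifen (about 20 mg/kg) a day for 5 days and were analysed 5 or 10 days later. The labels do not say which of those days applies to which library. Cage A held 2 controls and 3 mutants, aged 3.4 months, on a C57BL/6 background. Cage B held 3 controls and 2 mutants aged 2.6 months, and cage C 2 controls and 3 mutants aged 3.2 months, both on a mixed BL/6-129SvJ background. Cage, strain and age can therefore not be told apart where cage A differs from the others. The genotype label of the mutants ends in "Asc", which the labels do not spell out, and their protocol speaks of deficiency in the ascending or the descending colon.

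Mucin-type O-glycans are sugar chains started on serine or threonine by the GALNT enzymes. C1galt1 extends that first sugar to the core 1 structure, and B3gnt6, the enzyme also called C3GnT, extends it to core 3. Both cores carry the longer chains of Muc2, the gel-forming mucin of the colon, so the loss of both leaves the mucus gel poorly glycosylated and thin. Villin drives Cre in intestinal epithelial cells, and Cre-ERT2 is a recombinase fused to a modified estrogen receptor that tamoxifen activates; B3gnt6 is missing in every cell of the mutants. The question put to these libraries is which genes of the distal colon differ when the mucus is altered, and whether they do so alike in the 3 cages.

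The table gives FPKM, a read count scaled to gene length and to the reads of the library, for 14475 genes, and the 12219 that averaged 0.5 FPKM or more over these 15 libraries were tested. Depths estimated from the steps between low FPKM values were 3170000 to 8780000 reads in the controls and 6490000 to 8850000 in the mutants, and no counts were used. Hoxb13 and Hoxd13, positional genes of the hindgut, separated the regions in all libraries but one. Hoxb13, a homeobox gene of the most posterior gut, was at 146 to 341 FPKM in 14 descending libraries and at 0 to 4.55 in the 15 ascending ones. The library labelled descending control A2 had 44.5. For Hoxd13 the same 14 libraries had 41.1 to 123 FPKM, the ascending libraries 0 and control A2 0.38. Cdx2, a transcription factor gene that was higher in the ascending libraries, was at 119 to 208 FPKM there, at 2.79 to 47.6 in the 14 and at 73.3 in control A2. Muc2 was also highest in control A2 among the descending libraries, at 2136 FPKM against 381 to 1358, and the ascending libraries had 1923 to 8018. Control A2 thus lay between the regions by Hoxb13, Hoxd13 and Cdx2, and within the ascending range by Muc2. Mutant C1 also stood apart: the median Spearman correlations of control A2 and mutant C1 with the other descending libraries were 0.893 and 0.889, against 0.938 to 0.969 for the other 13. Of the 15, control A2 had the lowest estimated depth, 3170000 reads, and mutant C1 the lowest summed FPKM, 201203. What part these had in the correlations was not tested. Some results are therefore also given without 1 or both of them. Where nothing is said, values rest on all 15 descending libraries. Hoxa13 did not fully separate the regions: it was at 24.95 to 45.3 FPKM in the 14 descending libraries and at 20.6 in control A2. The ascending libraries had 0 to 27.2, the highest being ascending control B1. Defining markers of the epithelium were present throughout, Epcam being at 322 to 1011 FPKM.

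**Figure D1:**
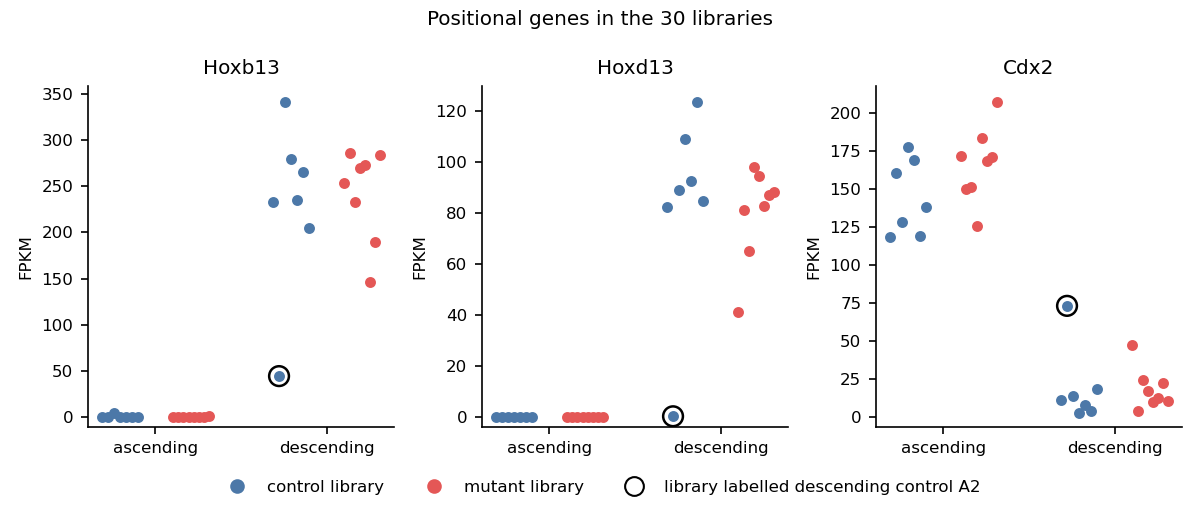
FPKM of Hoxb13, Hoxd13 and Cdx2 in every library of both regions, blue for controls and red for mutants. The circled library, labelled descending control A2, has 44.5 FPKM of Hoxb13 and 0.38 of Hoxd13, below the other 14 descending libraries, and 73.3 FPKM of Cdx2, above them.

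The 2 targeted genes were hardly informative as a check of the labels. C1galt1 (chr6:7844842-7875687, plus strand, GRCm38) was at 28.0 FPKM in the lowest control, 33.3 at the median and 38.7 in the highest, and at 14.6, 30.6 and 36.7 FPKM in the mutants. The groups overlapped, and the lowest value belonged to mutant C1. The log2 difference was -0.28 ± 0.16 (SE; 8 mutants against 7 controls), and an exact permutation of the genotype labels within cages, 1000 arrangements, gave a two-sided p of 0.112. By cage the difference was -0.04, -0.35 and -0.45 in A, B and C. FPKM over the whole gene do not show whether the floxed exon is present, and the stroma keeps an intact copy. B3gnt6 (chr7:98192417-98199481, minus strand) was near 0 in both groups: it was listed at 0 in 3 of the 7 controls, with a highest value of 0.43 FPKM, and at 0 in 7 of the 8 mutants, the other having 0.06 (exact within-cage permutation, two-sided p = 0.14). In the ascending colon the controls had 0.11 to 19.5 FPKM, with a median of 0.45, and the mutants 0 to 0.53, with a median of 0. The descending level was thus too low for the deletion to be seen there.

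No gene passed the test of mutants against controls. With limma on log2(FPKM + 1), cage as a covariate and Benjamini-Hochberg adjustment over the 12219 genes, 0 genes (0%) had an adjusted p under 0.05, and the lowest adjusted p was 0.605, for Pla2g3. With limma's array quality weights 1 gene passed, again Pla2g3 (log2 difference 0.87, adjusted p = 0.0455). At an unadjusted p under 0.05 there were 267 genes (2.19%), 98 higher and 169 lower in the mutants, where 610.95 would be expected by chance; with control A2 and mutant C1 left out there were 437, of which 271 were higher and 166 lower. Leaving out 1 library also moved the count past 1.5 times for control B1 (540), control C1 (425) and mutant C1 (489). The split between the directions also turned with scaling, to 181 higher and 131 lower after median-of-ratios scaling and 211 and 123 after quantile normalization. Of all genes tested 37.8% were higher and 62.2% lower in the mutants. The median over all genes was -0.04 on the log2 scale, and -0.10, 0.03 and -0.05 in cages A, B and C. Everything below is therefore a description of direction and size, and of how far the 3 cages gave the same direction. That held for 2220 genes (18.2%): 765 (6.26%) were higher and 1455 (11.9%) lower in the mutants of every cage. Without control A2, which leaves cage A with 1 control, 3352 genes did, 1365 of them higher and 1987 lower. The effect had the same sign in 60.2% of genes between cages B and C, but in only 35.9% between A and B and 40.3% between A and C. The count of 2220 is therefore not by itself evidence of effects that repeat between cages. In 4 genes (0.0327%) each mutant was above each control within every cage, in 7 genes (0.0573%) below, and in 0 genes (0%) did all 8 mutants lie beyond all 7 controls. By the design, 1 of the 1000 arrangements of labels within cages (a share of 0.001) separates a gene in every cage in a given direction. The shares of the 4 and of the 7 genes were both smaller than that. Within 1 cage the genotypes did not overlap in 30.2% of genes in A, 14.3% in B and 8.03% in C. Each cage held 2 libraries of 1 genotype and 3 of the other, so library number was alike in the 3.

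Genes of mitosis were higher in the mutants, in most cases in every cage. All 25 of its measured members had a higher level in the mutants, as 37.8% of all genes did, with log2 differences of 0.12 to 0.52 and a median of 0.30, against -0.04 over all genes. Of the 25, 21 were higher in every cage, where 6.26% of all genes were, and 6 had an unadjusted p under 0.05, where 0.802% of all genes were higher at that level; none passed the adjusted test. By cage (A, B, C) the list's median was 0.27, 0.34 and 0.26. The 4 members with another sign in 1 cage, named here after their values were seen, were Kif23, Cenpf, Cenpe and Bub1b, at -0.29, -0.21, -0.20 and -0.05 in cage A. The count of 21 depended on single libraries: it was 12 without mutant A3, 13 without mutant C3 and 14 without control A1, where 6.54%, 5.14% and 5.57% of all genes were higher in every cage. Without control A2 it was 25, with a background of 11.2%. The median was 0.24 to 0.39 when 1 library was left out, and 0.41 without both doubted libraries.

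Ccnb2 encodes cyclin B2, which partners the kinase Cdk1 at entry into mitosis. It was at 12.1 FPKM in the lowest control, 16.4 at the median and 19.0 in the highest, and at 18.4, 20.9 and 41.0 in the mutants. Within each cage every mutant was above every control, and across cages the highest controls of A and B passed the lowest mutant, in C. The log2 difference was 0.52 ± 0.15, and 0.60, 0.22 and 0.72 by cage (limma, adjusted p = 0.999). Mki67, the gene of the proliferation antigen Ki-67, was at 33.6, 36.9 and 56.8 FPKM (lowest, median, highest) in the controls and at 45.5, 54.7 and 88.7 in the mutants. Its highest control was control A2, and without that library the log2 difference was 0.54 in place of 0.47. Kif4, a chromosome-binding kinesin gene, differed by 0.35 ± 0.14 and Hmmr, a gene of the spindle, by 0.29 ± 0.13. Nek2, a centrosome kinase gene outside the list, was at 4.12 to 6.46 FPKM in the controls and 5.47 to 11.4 in the mutants, a difference of 0.42 ± 0.13. The summed level of the 25 genes was 193 to 223 FPKM in the cage B controls and 249 to 312 in the mutants. In cage C the sums were 185 to 210 and 237 to 337, again without overlap, whereas in cage A they overlapped, at 247 to 312 and 255 to 517.

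Genes of DNA replication had no shared direction. Of 29 members 12 were higher and 17 lower in the mutants, with a median of -0.04, equal to that of all genes to 2 decimals. Only 2 were higher in every cage: Gins1, a helicase cofactor gene (0.26 ± 0.16), and Mcm10 (0.17 ± 0.18). Another 3 were lower in every cage, among them the polymerase alpha gene Pola1 (-0.23 ± 0.20) and the helicase gene Mcm7 (-0.15 ± 0.16). The balance turned without mutant C1, to 22 higher and 7 lower (median 0.07), and after median-of-ratios scaling, to 17 and 12. The difference between the mitosis and the replication lists was not itself tested.

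The promoters of the mitosis genes are shown because the members lay on the same side in nearly every cage. Mitotic genes are textbook targets of factors that bind a CHR element and CCAAT boxes close to the start site. RefSeq promoter windows (GRCm38.p6) of 300 bases, 250 before and 50 after the start, within 1000 bases of the gene's 5′ end, were found for 8859 of the genes tested and 20 of the 25 mitosis genes. The CHR letters TTTGAA occurred on either strand in 15 of the 20 (75%) and in 11.7% of all windows. CCAAT occurred on either strand in 18 of 20 (90%) and in 39.1% of all windows. The 2 motifs were counted apart, and each is a match of letters only. The shares describe the promoters of the list, whatever the mutants do, and a link to the genotype difference was not tested. The windows of Ccnb2 (chr9:70421505-70421804, minus strand) and Mki67 (chr7:135716330-135716629, minus strand) are given 5′ to 3′ with both motifs in capitals, read as ATTGG where CCAAT is on the other strand.
Ccnb2: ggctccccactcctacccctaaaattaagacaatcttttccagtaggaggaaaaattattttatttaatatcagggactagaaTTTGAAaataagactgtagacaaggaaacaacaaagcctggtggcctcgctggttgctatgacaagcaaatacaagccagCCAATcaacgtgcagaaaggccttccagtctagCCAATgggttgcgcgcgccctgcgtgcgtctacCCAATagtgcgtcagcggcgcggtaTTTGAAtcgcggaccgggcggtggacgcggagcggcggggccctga
Mki67: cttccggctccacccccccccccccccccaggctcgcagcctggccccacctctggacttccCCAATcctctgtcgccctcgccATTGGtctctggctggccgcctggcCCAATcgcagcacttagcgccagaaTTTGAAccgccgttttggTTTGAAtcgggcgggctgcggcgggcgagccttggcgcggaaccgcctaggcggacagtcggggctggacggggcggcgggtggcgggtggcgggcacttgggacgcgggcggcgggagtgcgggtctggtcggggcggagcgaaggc
Each window has 2 CHR matches and 3 CCAAT matches, and in Ccnb2 the second CHR match lies just past the start site.

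Genes of cholesterol synthesis were the second list that lay mostly on the higher side. Of its 23 members 21 were higher and 2 lower in the mutants, with a median log2 difference of 0.29. In every cage 16 were higher (6.26% of all genes) and 1 lower (11.9% of all genes). The cage medians were 0.32, 0.26 and 0.11. Leaving out 1 library took the 16 down to 8 without control A1 and to 10 without control C1 or mutant C2. The median fell to 0.18 without control A1 and to 0.19 without mutant B2. Without control A2 and mutant C1 all 23 were higher, with a median of 0.44. At an unadjusted p under 0.05 there was 1 member, and none passed the adjusted test.

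Hmgcs1, which makes the HMG-CoA of the pathway's first committed steps, was at 43.5, 60.3 and 77.6 FPKM in the controls and at 37.9, 89.6 and 134 in the mutants. The lowest of all 15 was mutant C1, and without it the difference was 0.61 in place of 0.46 ± 0.24. Sqle, the squalene epoxidase gene, differed by 0.38 ± 0.21, and Srebf2, which encodes the transcription factor that controls the pathway, by 0.17 ± 0.09. The pathway's promoters are textbook targets of that factor, which binds a sterol regulatory element next to CCAAT boxes. Windows were found for 16 of the 23 genes. The letters TCACNCCAC, one form of the element, occurred on either strand in 1 of the 16 (6.25%) and in 1.12% of all windows, and CCAAT in 15 of 16 (93.8%) against 39.1%. The 1 window was that of Hmgcs1 (chr13:119690101-119690400, plus strand), shown 5′ to 3′ with the element and its 4 CCAAT matches in capitals.
Hmgcs1: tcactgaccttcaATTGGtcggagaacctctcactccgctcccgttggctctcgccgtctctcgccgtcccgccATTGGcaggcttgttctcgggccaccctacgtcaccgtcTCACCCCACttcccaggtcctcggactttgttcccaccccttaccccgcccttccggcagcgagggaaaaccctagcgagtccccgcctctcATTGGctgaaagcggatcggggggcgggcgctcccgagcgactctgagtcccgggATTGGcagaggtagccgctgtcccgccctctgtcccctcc
All 4 CCAAT matches lie on the other strand, and the element lies between them. The same counts in the xenobiotic list, given for comparison, were 6 of 15 (40%) for TTTGAA, 6 of 15 (40%) for CCAAT and 0 of 15 for TCACNCCAC. These shares too describe promoters only, and a link to the genotype difference was not tested.

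Fatty acid synthesis, the sister branch of lipid synthesis, was higher mainly in cage A. Of 12 genes tested 10 were higher, with a median of 0.18, but the cage medians were 0.55, 0.04 and -0.04. Fasn, the fatty acid synthase gene, differed by 0.33 ± 0.15, with 0.53, 0.42 and 0.03 by cage. Acly, which supplies cytosolic acetyl-CoA, differed by 0.30 ± 0.16, or 0.15 without control A2. Acaca (0.14 ± 0.11) and Elovl6 (0.09 ± 0.18), genes of the next steps, had the same sign in every cage at sizes near or below their error. The genes of sterol efflux, which are targets of the oxysterol receptor LXR, were split 2 higher to 7 lower (62.2% of all genes were lower), with a median of -0.13, and 3 were lower in every cage (11.9% of all genes). The median ran from -0.33 without control A2 to -0.03 without control A1, and without control C1 no member was lower in every cage. The members lower in every cage included Abca1, the cholesterol exporter gene, at 2.76, 3.55 and 7.55 FPKM in the controls and 1.75, 3.47 and 3.91 in the mutants. Abca1 differed by -0.49 ± 0.14 and by -0.83, -0.40 and -0.23 by cage, though the groups overlapped broadly. Abcg1, its partner exporter, differed by -0.44 ± 0.27 and Abcg8, of the luminal sterol pump, by -0.15 ± 0.29. Lpcat3, a phospholipid remodelling enzyme and LXR target, was the 1 member higher in every cage, at 0.21 ± 0.17.

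Genes of xenobiotic metabolism were split between the directions. Of 19 genes tested 12 were higher and 7 lower (median 0.13); 5 were higher at an unadjusted p under 0.05 (0.802% of all genes) and 1 was lower (1.38%), while none passed the adjusted test. The list holds 7 tested glutathione transferases, which join glutathione to reactive compounds, a subgroup counted after its values were seen. All 7 had a higher level in the mutants (37.8% of all genes), 4 of them in every cage (6.26% of all genes). The other 12 members were split 5 higher to 7 lower. Gsta1 was at 2.21, 3.96 and 9.59 FPKM in the controls and at 5.14, 8.58 and 22.2 in the mutants, with a log2 difference of 1.02 ± 0.35. Its cage values were 2.12, 0.55 and 0.38, so that cage A was farthest out. Gstm1 was at 41.7, 79.5 and 114 FPKM in the controls and 64.6, 122 and 269 in the mutants, a difference of 0.74 ± 0.26; the cages gave 1.36, 0.73 and 0.12, and the value without control A2 was 0.51. Gstm3 differed by 0.77 ± 0.25 and Gsta3 by 0.51 ± 0.18, both with the largest value in cage A. Gstm2 (0.37 ± 0.29), Gstp1 (0.36 ± 0.32) and Gsta4 (0.13 ± 0.35) differed by amounts near or below their error and were below 0 in cage C. The Gsta and the Gstm genes are near-identical families, and the sources used here do not say how reads shared between members were counted. The list's cage medians were 0.89, 0.08 and 0.12, and the median was 0.47 without cage C. With 1 library left out it ran from 0.05, without mutant A2, to 0.39, without mutant C1. Of the 6 members higher in every cage 1 was left without control C1.

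**Figure D2:**
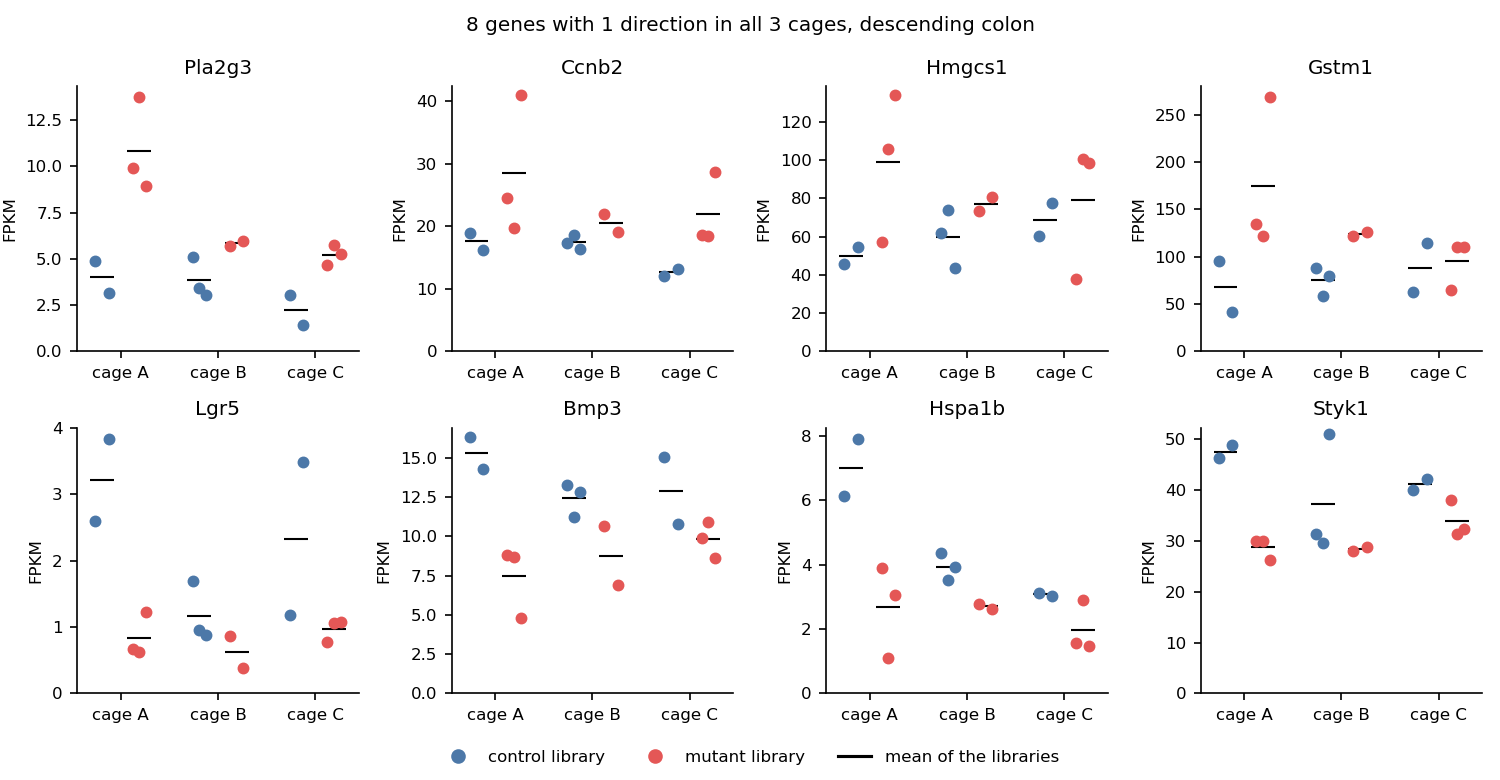
FPKM of 8 genes in each descending library by cage, blue for controls and red for mutants, with a bar at the mean of the libraries. In the upper row Pla2g3 and Ccnb2 have every mutant above every control in each cage; in the lower row Lgr5, Hspa1b and Styk1 have every mutant below every control in each cage.

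Pla2g3, which encodes a secreted phospholipase A2, had the smallest p of all genes. The controls ranged from 1.42 FPKM through a median of 3.16 to 5.08, and the mutants from 4.65 through 5.85 to 13.7. Within each cage every mutant was above every control; across cages the highest controls of A and B passed the lowest mutant, in C. The difference was 0.91 ± 0.16 (higher in all 3 cages, at 1.24, 0.52 and 0.99; limma, adjusted p = 0.605) and 0.82 without control A2 and mutant C1. Grhl3, a transcription factor gene of barrier epithelia, was at 0.11, 0.78 and 1.21 FPKM in the controls and 0.46, 1.53 and 2.78 in the mutants, a difference of 0.59 ± 0.15. Fam83c had every mutant above every control in each cage, at 3.5, 4.75 and 6.65 FPKM against 6.13, 6.92 and 7.75, a difference of 0.46 ± 0.14 that was nearly the same in all cages (0.46, 0.43 and 0.49). The last gene separated in this way was Mapk6, an atypical MAP kinase gene, with a small difference of 0.21 ± 0.08.

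Esr1, the gene of estrogen receptor alpha, was at 0.48, 0.60 and 1.34 FPKM in the controls and at 1.12, 1.495 and 2.24 in the mutants, which overlapped in 2 controls. Its difference was 0.51 ± 0.14, and whether reads of the Cre-ERT2 transgene, which carries estrogen receptor sequence, were counted here was not tested. The other 6 genes of the list for tamoxifen and estrogen response were split 2 higher to 4 lower. Cda, which deaminates cytidine, differed by 0.65 ± 0.18 (0.57, 0.58 and 0.78 by cage), and C4bp, a complement regulator, by 0.61 ± 0.18, or 0.43 without control A2. Aldh3b2, an aldehyde dehydrogenase gene, differed by 0.52 ± 0.17 and Znhit3 by 0.69 ± 0.22. Acta1, the skeletal muscle actin gene, had the largest difference of these, 1.18 ± 0.35, which came from cage B: its mutants had 26.9 and 18.5 FPKM, and all other libraries 1.27 to 6.90. The cage values were 0.36, 2.67 and 0.51.

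Lgr5, the receptor gene that marks stem cells at the crypt base, was lower in the mutants. The controls had 0.88, 1.69 and 3.83 FPKM (lowest, median, highest) and the mutants 0.38, 0.82 and 1.23. Within each cage every mutant was below every control, with values overlapping only across cages. In cage B this rested on a narrow gap, 0.86 FPKM in mutant B1 against 0.88 in control B3. The difference was -0.76 ± 0.18 (lower in all 3 cages, at -1.20, -0.42 and -0.67; limma, adjusted p = 0.999), and -0.62 without control A2 and mutant C1. The stem cell list, which includes Lgr5, was less even. Of its 12 genes 11 were lower (62.2% of all genes), with a median of -0.24. Only 4, Lgr5 among them, were lower in every cage (11.9% of all genes), and 2 without mutant B2. The cage medians were -0.71, 0.13 and -0.11. Without cage A 6 were higher and 6 lower, with a median of -0.01, and without control A2 the median was -0.11. Rnf43, a brake on Wnt receptors, differed by -0.33 ± 0.15 and by -0.81, -0.17 and -0.00 by cage. Smoc2 differed by -0.39 ± 0.20, and Ephb2, an ephrin receptor gene of the lower crypt, was the only member that was higher, at 0.14 ± 0.11. Within the summed level of this list the cage A mutants, at 153 to 168 FPKM, were below the controls, at 220 to 293. In cage B the order was the opposite, with 202 to 206 FPKM in the mutants and 175 to 188 in the controls.

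Bmp3, a ligand of the BMP family, was at 10.8, 13.3 and 16.3 FPKM in the controls and at 4.83, 8.77 and 10.9 in the mutants, so that only the highest mutant, in cage C, exceeded the lowest control. Its difference was -0.61 ± 0.15. Sfrp1, a secreted Wnt inhibitor, depended on cage in level: cage A had 0.14 to 0.80 FPKM in its 5 libraries and cages B and C 3.73 to 17.7 in theirs. Within cage B the controls had 10.9 to 17.7 FPKM and the mutants 4.28 and 5.91, and the difference over all cages was -0.71 ± 0.18. Cd200, an immune-regulatory surface protein gene, differed by -0.60 ± 0.18 and Cdk6, a G1 cyclin-dependent kinase gene, by -0.57 ± 0.17, the latter with -0.05 in cage B and -0.41 overall without control A2.

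Hspa1b, which encodes the stress-inducible chaperone Hsp70, was at 3.04, 3.94 and 7.90 FPKM in the controls and at 1.09, 2.70 and 3.90 in the mutants. Each mutant was below each control in every cage, and the difference was -0.70 ± 0.19, or -0.57 without the 2 doubted libraries. Hspa1b has a near-identical neighbour, so its reads may be shared with that copy. Styk1, a receptor-like kinase gene, was separated in the same way, at 29.5, 42.1 and 50.9 FPKM against 26.3, 29.985 and 38.1, with a difference of -0.44 ± 0.12. Nr3c1, the glucocorticoid receptor gene, was at 17.1, 17.7 and 20.0 FPKM in the controls and 11.0, 14.9 and 17.4 in the mutants, a difference of -0.31 ± 0.10 that was close to equal in the cages (-0.26, -0.35 and -0.33). Pgm2l1 (-0.23 ± 0.10) and the tricellular junction gene Marveld2 (-0.13 ± 0.07) were the other separated genes above 1 FPKM. Epm2a, at a mean of 0.52 FPKM, was the last of the 7 and is named after its values were seen. Trim44, a TRIM-family gene, was at 10.2 to 17.2 FPKM in the controls and 9.45 to 12.3 in the mutants (-0.41 ± 0.09), and Atg10, an autophagy conjugation enzyme gene, at 3.83 to 5.91 and 1.87 to 4.0 (-0.58 ± 0.13). Slfn2, an interferon-inducible gene, and Ifitm5, a membrane protein gene, differed by -0.61 ± 0.18 and -0.48 ± 0.14.

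Genes of the smooth muscle, nerves and connective tissue were mostly lower in the mutants in the fit over the cages, by amounts that depended on the cage. For connective tissue the direction did too, its median being above 0 in cage B. In bulk tissue fewer cells of a type and less RNA per cell cannot be told apart. All 13 smooth muscle genes were lower (62.2% of all genes), with a median of -0.62, and 9 were lower in every cage (11.9% of all genes); the cage medians were -1.34, -0.22 and -0.26. The 9 rested on cage B: the count was 0 without control B3 or mutant B2, 1 without control B2 and 4 without mutant C2. The median was -0.998 without control B1 and -0.41 without control A1. The spread was wide: the summed level was 44.2 to 529 FPKM in the controls and 57.1 to 343 in the mutants, and both extremes of the controls came from cage B. Des, the muscle intermediate filament gene, differed by -0.72 ± 0.47, Acta2 by -0.73 ± 0.53, Cnn1 by -0.92 ± 0.48 and Lmod1 by -0.37 ± 0.28, all genes of the contractile apparatus. None had an unadjusted p under 0.05. Of 5 enteric neuron and glia genes tested all were lower (median -0.39), 4 of them in every cage (11.9% of all genes). The 4 became 1 without mutant B2 and 0 without control C2, where the median was -0.24. The 4 were Tubb3 (-0.39 ± 0.17), Uchl1 (-0.59 ± 0.27), Prph (-0.41 ± 0.28) and the neuronal receptor gene Ret (-0.17 ± 0.13). The remaining 6 measured neural markers, among them Elavl4, Stmn2, Sox10 and Gfap, were below 0.5 FPKM on average. The fibroblast and matrix list had 15 of 16 genes lower (median -0.35), but only 2 in every cage (11.9% of all genes), Col1a1 (-0.63 ± 0.34) and Sparc (-0.63 ± 0.44). Without mutant B1 the 2 became 12, and without mutant B2 or control C2 they became 0. Its cage medians were -1.07, 0.13 and -0.17, and without cage A the median was 0.01 with 8 genes in each direction. What part the share of muscle and stroma in a sample had in other differences was not tested.

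**Figure D3:**
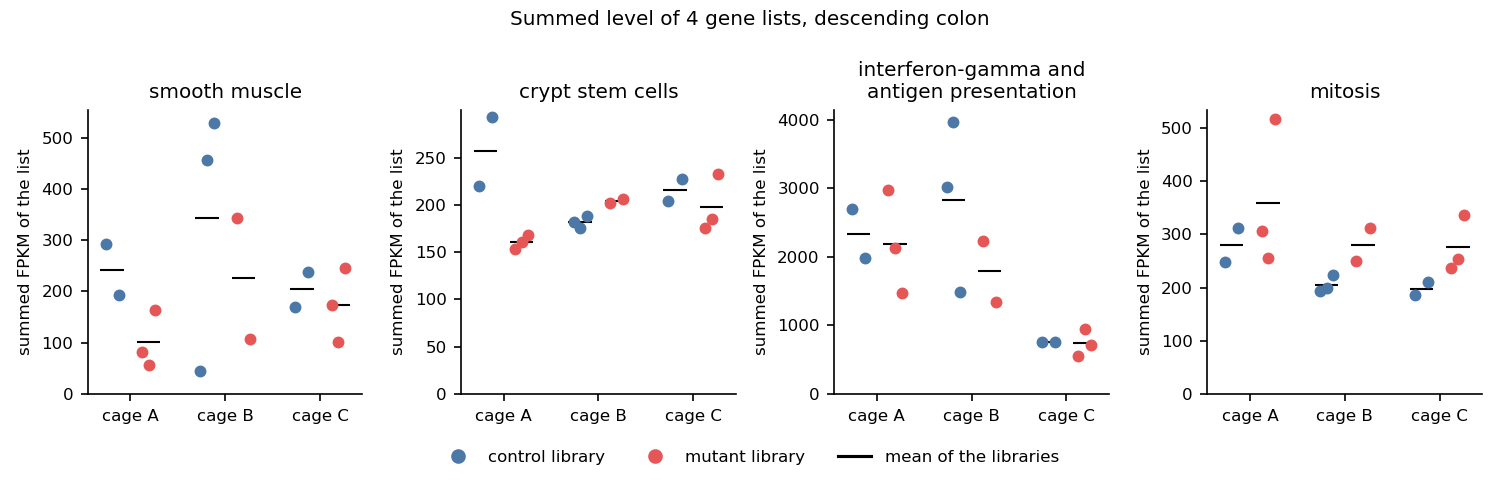
Summed FPKM of 4 gene lists in each descending library by cage, blue for controls and red for mutants, with a bar at the mean of the libraries. The smooth muscle sum runs from 44.2 to 529 FPKM in the controls, and the mitosis sums do not overlap between genotypes in cages B and C.

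Interferon-related genes were mostly lower in the mutants, by amounts that depended on single libraries. The list for interferon-gamma and antigen presentation had 20 of 23 genes lower, where 62.2% of all genes were, and a median of -0.22; 10 were lower in every cage (11.9% of all genes) and none had an unadjusted p under 0.05. Without control B2 the median was -0.08, with 16 lower and 5 of them in every cage, and without mutant B2 it was -0.10. The level of this list differed between cages: its sum was 554 to 948 FPKM in the 5 libraries of cage C and 1343 to 3970 in the other 10. Its members named by the rule, Igtp (-0.43 ± 0.25), Irgm1 (-0.24 ± 0.14), Gbp3 (-0.52 ± 0.28) and Iigp1 (-0.58 ± 0.33), encode GTPases that act against intracellular microbes. Control B2 was the highest control for all 4, and without it they were at -0.22, -0.15, -0.35 and -0.35. Igtp had 21.6 FPKM in that library, against 5.3 and 4.27 in the other cage B controls and 4.13 and 5.3 in the cage B mutants. The interferon-stimulated list had 18 of 19 genes lower (median -0.37), 5 of them in every cage (11.9% of all genes). Its cage medians were -1.03, -0.18 and 0.16, and its median was -0.11 without control A2 and -0.20 without control B2, which left 1 gene lower in every cage. Ifit2 was at 0.66, 1.55 and 10.1 FPKM in the controls and at 0.54, 0.82 and 1.32 in the mutants, with the highest control far above the rest (-0.70 ± 0.34). Ifit3 (-0.57 ± 0.31) and Ifit1 (-0.61 ± 0.39) were also lower in every cage, and Ifit1 was at -0.29 without control A2.

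Markers of immune cells were low. Of 9 macrophage genes tested 7 were lower (median -0.41), 0 in every cage, with cage medians of -1.28, 0.43 and -0.29. Their sum was 44.9 to 207 FPKM in the controls and 35.5 to 111 in the mutants. Of the 13 T cell genes measured 4 passed the filter, their median being -0.10, and Cd3e, Cd3d, Cd3g, Cd4 and Cd8a did not pass. The sum of the T cell list was 4.98 to 9.28 FPKM in the controls and 3.15 to 9.43 in the mutants. Of 14 cytokine and chemokine genes tested 4 were higher and 10 lower (median -0.07), and Il1b, Il6, Cxcl2 and Cxcl9 were among those under the filter. Of 14 defence genes 7 were higher and 7 lower, with cage medians of -0.48, 0.51 and -0.38; Reg3b, Reg3g and Lcn2 were under the filter.

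Mucus and glycan genes gave medians near 0. Of 23 goblet cell genes 15 were higher (median 0.12) and 3 of them in every cage (6.26% of all genes), or 1 to 9 when 1 library was left out. The 3 were Kcnk6, a potassium channel gene (0.20 ± 0.14), Bcas1 (0.22 ± 0.26) and the protease gene Capn9 (0.10 ± 0.30). The cage medians were 0.08, 0.31 and -0.08, and the summed level was 4287 to 8327 FPKM in the controls and 3491 to 14482 in the mutants. Of 15 genes of O-glycan core synthesis 7 were higher and 8 lower (median -0.03), and besides C1galt1 only Galnt10, one of the initiating transferases, had the same sign in every cage (0.15 ± 0.13). Of 24 genes of chain extension and capping 18 were higher (median 0.06), but without control A2 it was 10, with a median of -0.04. St6galnac1, the sialyltransferase that caps the first sugar, was at 0 to 28.6 FPKM in the controls and 0 to 47.5 in the mutants (0.45 ± 0.32). Its level depended on cage, with 0 to 0.25 FPKM in cage A and 6.35 to 47.5 in cages B and C. Its sign in cage A rested on the 0.25 FPKM of mutant A1. B4galnt3, a transferase of terminal structures, was at 0.20 ± 0.21 and turned to -0.04 without control A2. Of 5 transmembrane mucin genes 3 were higher (median 0.11).

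Lists of the differentiated epithelium gave small medians. Of 24 absorptive colonocyte genes 16 were higher (median 0.11). In every cage 6 were higher (6.26% of all genes) and 2 lower (11.9% of all genes). The 6 became 3 without control C1 or mutant C2. Vil1, which encodes the brush border protein villin, differed by 0.20 ± 0.13, the water channel gene Aqp4 by 0.67 ± 0.54, the adhesion gene Ceacam1 by -0.27 ± 0.14 and Saa1, serum amyloid A1, by -0.46 ± 0.26. Ion and water transport had 14 of 22 genes higher (median 0.05). Clca4a, a chloride channel accessory gene, differed by 0.79 ± 0.35 with 0.04, 1.51 and 0.81 by cage, the sodium-potassium-chloride cotransporter gene Slc12a2 by -0.31 ± 0.16 and the kinase gene Sgk1 by -0.50 ± 0.36. The enteroendocrine list was split 6 to 7, with Tph1, the serotonin synthesis gene, at 0.40 ± 0.14 (0.26 without control A2), Chgb at 0.27 ± 0.13, Scg3 at -0.20 ± 0.11 and somatostatin, Sst, at -0.44 ± 0.28. The 7 tuft cell genes tested were all lower (median -0.16), but without control A2 5 were higher and 2 lower, with a median of 0.27.

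The values of the posterior patterning genes depended on control A2. Of 15 tested 10 were higher (median 0.24), and 5 were higher in every cage (6.26% of all genes). Without control A2 8 were higher and 7 lower, with a median of 0.04. Hoxd11 and Hoxd12, posterior homeobox genes, were listed at 0 in control A2 and at 8.45 to 16.5 and 5.86 to 10.4 FPKM in the other 6 controls. Mutants A1 and A3 were low too: Hoxd11 was at 3.32 and 5.2 FPKM in them, against 12.6 to 16.1 in the other mutants. Hoxd12 was at 2.27 and 4.93 FPKM in them, against 6.26 to 14.2. The differences of Hoxd11 and Hoxd12 were 0.42 ± 0.44 and 0.55 ± 0.42, and -0.11 and 0.08 without control A2. Hoxd8 (0.26 ± 0.15) and Hoxd9 (0.37 ± 0.33) were at 0.19 and 0.16 without it.

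**Figure D4:**
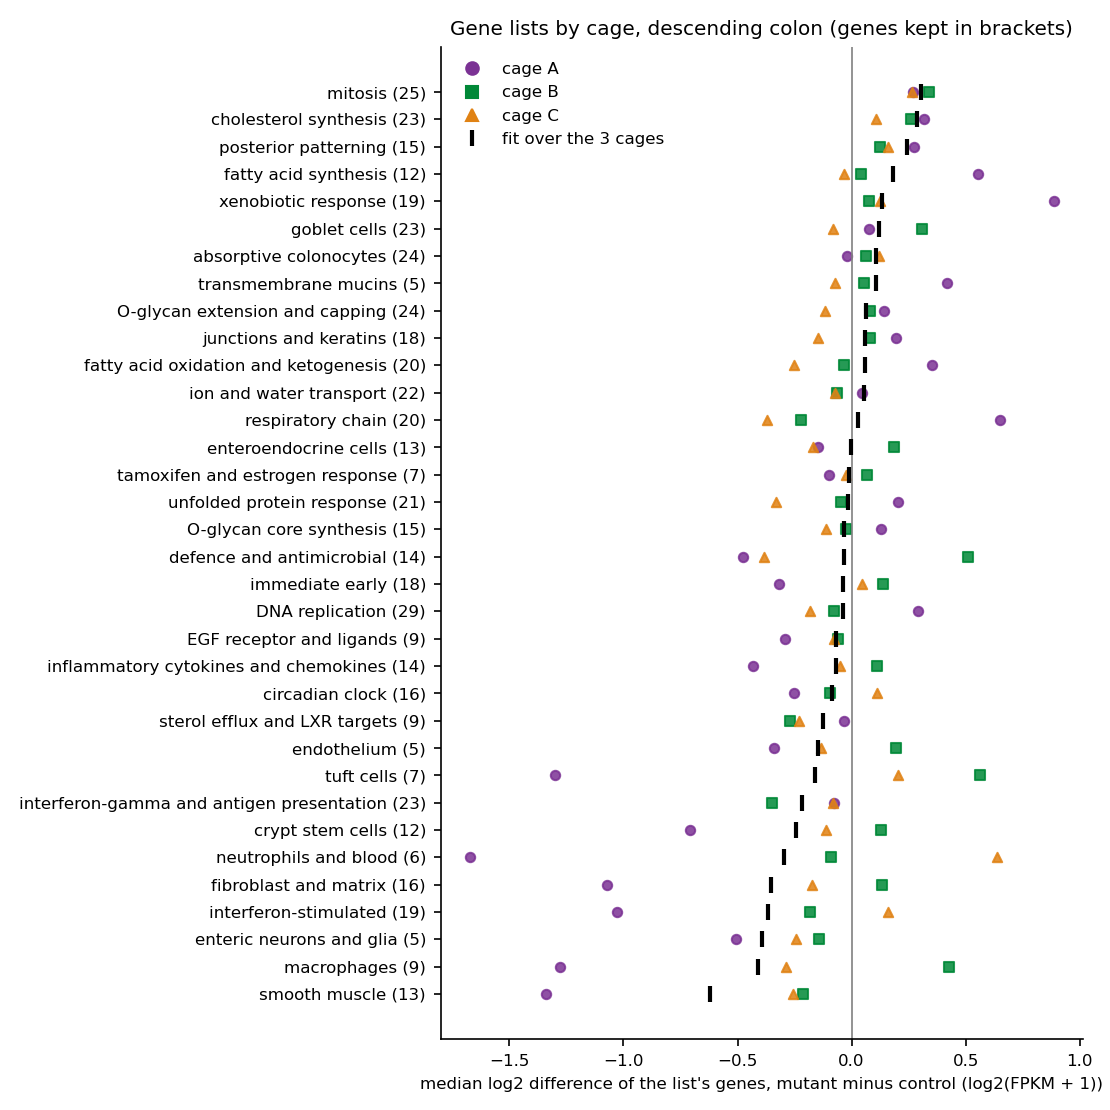
Median log2 difference, mutant minus control, of each gene list with at least 5 genes tested, by cage (coloured symbols) and in the fit over the cages (black bars). Mitosis has cage medians of 0.27, 0.34 and 0.26, and several lists of muscle, stroma and immune cells lie far below 0 in cage A alone, as smooth muscle does at -1.34 against -0.22 and -0.26.

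The genotype effect differed between cages in 1 gene of 12219 (0.00818%), by an F test of the genotype by cage terms with Benjamini-Hochberg adjustment; 540 genes (4.42%) had an unadjusted p under 0.05. Without control A1 the count was 132 and without control B1 2. The gene was Eno1b, an enolase gene (adjusted p = 0.000336). It was listed at 0 in all 5 libraries of cage A. In cage B the controls had 12.5, 6.89 and 9.48 FPKM and both mutants were listed at 0, while in cage C the controls had 5.42 and 3.24 and the mutants 6.90, 7.75 and 8.68. Cages B and C have the same strain label, and cage A alone the other. Gcnt1, which makes the core 2 branch on core 1, followed with an adjusted p of 0.879: in cage B the controls had 35.9, 23.7 and 23.0 FPKM and the mutants 4.23 and 3.39, and its cage differences were 0.29, -2.55 and -0.11. Rab12, Tnfaip2 and Dnaaf3 came next, with the same adjusted p of 0.879. Tnfaip2, an inflammation-induced gene, had cage differences of -1.92, 0.65 and 0.27.

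The ascending colon of the same cages gave a comparison of regions. In a fit of all 30 libraries, 0 of 12353 genes (0%) had an adjusted p under 0.05 for the interaction of region and genotype (limma, lowest adjusted p 0.99992), and 198 (1.6%) had an unadjusted p under 0.05. The smallest p belonged to Tbc1d2b, a Rab GTPase regulator, at 0.13 in the descending and -0.45 in the ascending colon, and Adss, an enzyme of AMP synthesis, at -0.11 and 0.38. Arhgap31 was at 0.11 and -0.40, the chloride channel gene Ano1 at 0.37 and -0.42 and Gtpbp1 at 0.10 and -0.25. Of the 12 lower genes with the smallest p all had the same sign in the ascending colon, as had 8 of the 10 higher ones with a fitted value there, where 66.3% of all genes did. The other 2 higher genes, C4bp and Grhl3, were too low there to be fitted, and their medians were lower in the ascending mutants. C4bp had medians of 0.54 FPKM in the ascending controls and 0.305 in the mutants, and Grhl3 0.05 and 0. The ascending values were 0.78 for Pla2g3, 0.62 for Ccnb2, 0.89 for Esr1, -0.77 for Abca1, -0.33 for Trim44 and -0.35 for Lgr5. The exceptions among the fitted genes were Fam83c and Znhit3 (-0.02), and among the genes separated in every cage also Nr3c1, at 0.08. Fam83c differed by -0.14 there, and the descending minus ascending difference was 0.60 ± 0.21 (adjusted p = 0.99992). Whether libraries of the 2 regions came from the same animals is not stated, so these values are set side by side only.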

How the data were processed

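RNA was extracted from pieces of ascending and descending colon, 1 µg of total RNA per library, and sequenced as single reads of 50 bases, per the labels' protocols. The submitters' processing notes name bcl2fastq 2.17, STAR, DESeq2 and the build GRCm38 (mm10); their roles are not stated. The authors deposited FPKM per gene, which are scaled to gene length and to the reads of each library, so a few abundant genes can shift all others. No count test was run. Of the 14475 genes, 14472 were found in GENCODE M21 and 14469 are protein-coding; a symbol shared by 2 identifiers (2 cases) was not named. Depths were estimated from the steps of low FPKM values, which limits the precision of genes near 1 FPKM.

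Values were transformed to log2(FPKM + 1), which understates changes of low genes, and genes with a mean under 0.5 FPKM were left out. limma 3.58.1 (R 4.3.3) was fitted with genotype and cage, moderated with a mean trend, two-sided and Benjamini-Hochberg adjusted over all genes tested at a threshold of 0.05; an F test took genotype by cage and a fit of all 30 libraries genotype by region. ± marks the standard error of a log2 difference. The fits were tested on simulated data. The labels do not say whether each library came from its own animal, so p-values measure the spread between these libraries, which may be technical in part. No 2 libraries were identical.

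The comparison, the 38 gene lists and the rule for named genes were chosen with earlier results of these data known, so lists are described by counts and medians, without tests. Named were the targeted genes, the 12 genes per direction with the smallest p among those averaging 1 FPKM or more with 1 sign in every cage, genes separated in every cage, up to 4 same-sign members of each list described gene by gene, and the 5 smallest p of the F test and of the interaction. Some genes that this rule picks are not reported here. Promoter windows came from RefSeq (GRCm38.p6). Replicate numbers were not taken to pair the libraries. Alternatives covered the pseudocount, filter, scaling, weights, covariates and each library and cage left out.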

Additional observations from a re-analysis of the deposited data

Results flagged for a closer look

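Among the 101 genes named, 202 groups of descending libraries were looked at for a library far from the rest, of which 9 had one; chance gives about 1 in 20. Control A2 had 24.2 FPKM of B4galnt3 where the other controls had 70.6 to 95.5, and was listed at 0 for Hoxd11 (others 8.45 to 16.5) and at 0 for Hoxd12 (others 5.86 to 10.4). Mutant C1 had 103 FPKM of Bcas1 (other mutants 18.2 to 38.5), 10.5 of Lpcat3 (21.1 to 37.1) and 150 of Ano1 (63.4 to 94.7). Mutant A3 had 11.1 FPKM of Kif4 (4.73 to 7.13). Mutant B2 had 9.51 FPKM of Tbc1d2b (10.9 to 12.2), and 0.06 of B3gnt6 where the other mutants were listed at 0. Of these 9 values 6 belong to control A2 or mutant C1, which stood apart in the whole table too.

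Eno1b differed in its genotype effect between cages (limma F test, adjusted p = 0.000336), being lower in the mutants of cage B by a log2 difference of -3.37 and higher in those of cage C by 0.75. Rab12, Dnaaf3 and Gtpbp1 had all mutants below all controls in cage A and all above in another cage: the cage A differences were -0.87, -1.02 and -0.12, and the others 0.41, 0.40 and 0.27. None of the 3 passed the F test (limma, adjusted p = 0.879 for each).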

How the results depend on the processing

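The count of genes passing the test of mutants against controls was 0 under every alternative but array quality weights, where it was 1, and the region interaction stayed at 0 throughout. The genes at an unadjusted p under 0.05 (267) became 428 without a filter, 172 at a mean of at least 2 FPKM, 960 with array quality weights, 425 without cage B and 437 without control A2 and mutant C1 (an alternative chosen after seeing the data); leaving out single libraries gave 227 to 540. Genes with the same sign in every cage (2220) ranged from 1901 to 3352 when 1 library was left out, and were split 1137 higher to 1025 lower after median-of-ratios scaling; no value exists without a cage. The cage F test (1 gene) gave 2 genes with array quality weights and 1 to 132 when 1 library was left out. The cause of these shifts was not tested. Deviations of same-numbered libraries correlated at -0.18 to 0.38, over 0.1 in 3 of 6 pairs, so the numbers were not taken as pairs, and a fit with the replicate block gave 0 genes past the threshold and 244 at an unadjusted p under 0.05.

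Signs turned for 6 named genes. B4galnt3 was at -0.107 with array quality weights, at -0.0986 without both libraries and between -0.0429 and 0.367 when 1 library was left out. For Hoxd11 the values were -0.159, -0.139 and -0.113 to 0.806, and for Hoxd9 -0.126 with the weights and -0.0222 without both libraries. Leaving out 1 library gave -0.0628 to 0.248 for Capn9, -0.00315 to 0.177 for Elovl6 and -0.363 to 0.0499 for Abcg8, with the turn at control A2 (B4galnt3, Hoxd11), control A1 (Capn9, Elovl6, Abcg8) or mutant C1 (Capn9). List medians that moved past the spread between libraries were those of enteric neurons and glia (-0.86 at a pseudocount of 0.1), posterior patterning (-0.06 with array quality weights), macrophages (0.04 without cage A, -0.81 without cage B, -0.08 without both libraries), crypt stem cells (-0.01 and -0.49 without cages A and B), neutrophils and blood (-1.004 without cage C) and xenobiotic response (0.47 without cage C). The mitosis median stayed between 0.20, with the replicate block, and 0.41, and 24 or 25 of its 25 genes were higher under each alternative. The FPKM table carries no counts, so differences of genes near 1 FPKM were not separable from sampling error.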
